A study of Danio rerio with 8 samples.

Results

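Iron-sulfur clusters are built in mitochondria, and the genes described here code for proteins of that assembly line together with glrx5, a monothiol glutaredoxin. The 8 symbols are glrx5, iscu, isca1, isca2, nfs1, lyrm4, fxn and bola3, and 6 of them have a row among the 21234 genes of the deposited count table. The set was chosen because glrx5 was among the genes that rose most with Hmga1a overexpression in these same libraries. The values of glrx5 in that contrast are therefore a description and carry no test, and those of the other genes were also seen before the set was drawn up.

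The samples are 8 libraries made from polyadenylated RNA of the adult zebrafish heart, 4 of the genotype called control and 4 of the genotype called Hmga1a overexpression. Both groups carry cmlc2:dsred, a transgene that puts a red fluorescent protein under a promoter of heart muscle cells. Both are labelled 14 days post tamoxifen, the drug that was given to induce Hmga1a, an AT-hook protein of chromatin. The ventricles were uninjured and were dissociated into single cells, and the cells are labelled cardiomyocytes. The promoter of the Hmga1a transgene, the way cells were selected and the number of fish per library are not stated in the labels, so p-values here measure the spread among 8 libraries, which may in part be technical.

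Assembly begins on the scaffold protein iscu. The cysteine desulfurase nfs1, held stable by lyrm4, supplies sulfur, and fxn (frataxin) speeds its transfer. The finished small cluster is passed to glrx5, which hands it on to client proteins and to isca1 and isca2, a pair that makes the larger clusters needed by the respiratory chain and lipoic acid synthesis. bola3 acts with glrx5 and nfu1 in delivering those larger clusters. In zebrafish glrx5 is known from a mutant with anemia, in which loss of the gene disturbs iron sensing and heme synthesis in red cells.

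Total corrected counts ran from 49598 to 352807 in controls and from 302157 to 572295 with overexpression, and control 2 was the shallowest library. Mitochondrially encoded RNA made up 56.0% ± 9.35 of a control library and 31.7% ± 2.98 of an overexpression library (SD, n = 4), with no overlap between the groups. With the most abundant RNA left out, these shares were 41.1% ± 5.66 and 24.3% ± 2.03, again with no overlap. Marker genes of several cell types also moved with the groups. Summed cardiomyocyte markers lay between 12739 and 21249 CPM (corrected counts per 1e6, TMM-adjusted) in controls and between 39105 and 44916 CPM with overexpression. Of 11 tested, 9 were called higher and 1 lower (ryr2b). The largest part of the sum was mb, with means of 6974 CPM in controls and 16634 CPM with overexpression. The marker myl7 was listed with 1 count over all controls and 0 with overexpression, which does not show that the gene was silent. Leukocyte markers summed to 3952 to 7851 CPM in controls and 1617 to 2123 CPM with overexpression, with 6 of 6 tested called lower and coro1a at 0. Fibroblast markers went from 806 to 1664 CPM in controls to 143 to 212 CPM (2 of 2 lower). Epicardial markers went from 3123 to 3727 CPM to 1165 to 1441 CPM (4 of 4 lower, tbx18 at 0), and endothelial markers from 250.6 to 380.5 CPM to 57.0 to 134.2 CPM (4 of 4 lower, cdh5 at 0). Erythrocyte markers summed to 28.3 to 85.8 CPM in controls and 58.2 to 252.4 CPM with overexpression. The red cell genes hbba1, hbba2, alas2 and slc4a1a were listed at 0 in all 8 libraries, and 1 erythrocyte marker was tested (called higher). Thrombocyte markers summed to 0 to 84.8 CPM and 6.64 to 23.7 CPM, with none tested and fermt3b, mpl and itga2b at 0. In bulk RNA, fewer cells of a type and less RNA per cell cannot be told apart, and the part of the cell mixture in the results below was not tested.

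Of the 6 genes with a row, 5 had counts and 4 (glrx5, isca1, isca2 and bola3) passed the filter on low counts. All 5, glrx5 included, had a higher mean level with overexpression, and the share of all genes with a higher mean was not computed. edgeR's quasi-likelihood test, adjusted over the 2501 genes tested, called 2 of the 4 higher and 0 lower. The 2 were glrx5, on which the set was chosen, and isca2. All 4 fitted values were above 0, as were about 50% of all genes tested, whose median log2 fold change was 0.01. Over all genes tested 30.4% were called higher and 29.2% lower. Of the 3 tested besides glrx5 only isca2 was called higher, which is near that share. The threshold throughout was an adjusted p of 0.05. Levels in CPM are corrected counts per 1e6 counts of a library whose total was adjusted by TMM, and counts are unique molecular identifiers after a correction for reuse.

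**Figure D1:**
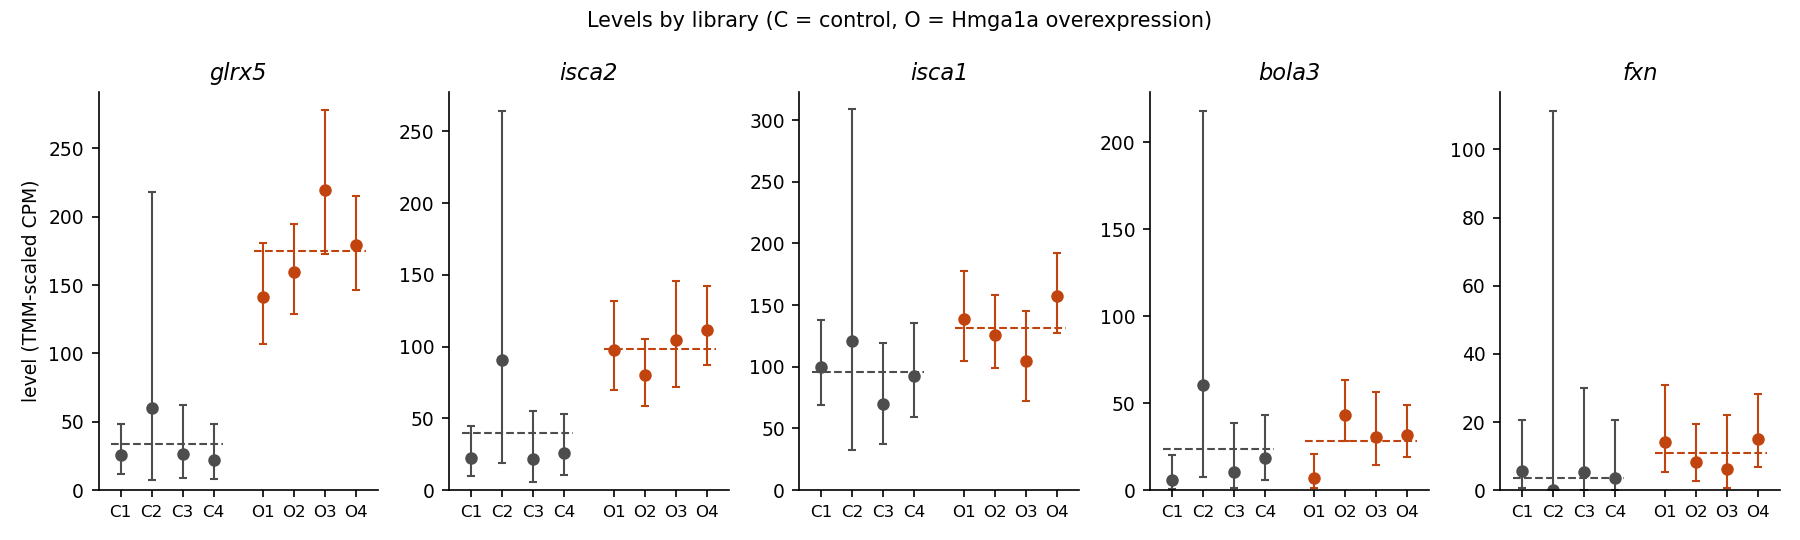
Level of each gene with counts in every library, in TMM-scaled CPM on a linear axis that starts at 0 and differs between panels. Points are libraries (C1 to C4 control, O1 to O4 Hmga1a overexpression), bars are exact 95% intervals for counting error only, and dashed lines are group means. The 4 overexpression libraries lie between 141.0 and 219.3 CPM for glrx5 and all 4 controls between 22.1 and 60.3 CPM, and the intervals of control 2 are the widest in every panel.

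The scaffold and the sulfur donor could not be followed. No row carries the symbols iscu or nfs1 or the other names RefSeq gives for them (5 and 2 names searched), and these genes are not analysed here. A row named iscub was at 0 in every library. lyrm4, which stabilises the desulfurase, was also listed at 0 in all 8 libraries. Among the rows, 7791 genes (36.7%) are at 0 throughout, among them widely used mitochondrial genes such as uqcrfs1, ndufs7 and ndufab1b, so the entry for lyrm4 says only that it is listed at 0.

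fxn (LL0000011007), the frataxin gene, was counted in 7 of 8 libraries but fell below the filter. Controls 1 to 4 held 2, 0, 1 and 1 corrected counts, and the overexpression libraries, in the same order, held 6, 5, 2 and 9. The levels were 5.66, 0, 5.36 and 3.68 CPM in controls and 14.2, 8.30, 6.13 and 14.9 CPM with overexpression. Every overexpression library was above every control, although overexpression 3 exceeded control 1 by less than 1 CPM and both rest on the same count. Among the genes that passed the filter, 25.7% separated upward in this way. On the log2(CPM + 1) scale the groups differed by 1.59 (two-sided exact permutation p = 0.0286 with n = 4 per group, the smallest this design allows). The exact 95% interval of the 0 in control 2 reaches 111.3 CPM, and without that library the difference was 0.95 (exact p = 0.0571, 3 against 4). Fitted with no filter, the log2 fold change of fxn was 1.39 ± 0.92, which is short of the threshold (adjusted p = 0.321, edgeR).

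glrx5 (LL0000011397), the carrier that takes the new cluster from the scaffold, had few counts in controls and many with overexpression. Controls 1 to 4 held 9, 2, 5 and 6 corrected counts, and overexpression libraries 1 to 4 held 59.4, 96.1, 71.6 and 108.4. The levels were 25.5, 60.3, 26.8 and 22.1 CPM in controls and 141.0, 159.5, 219.3 and 179.2 CPM with overexpression. The lowest overexpression library was above the highest control, and among the genes tested 25.7% showed such a separation upward. The control mean was 33.7 ± 17.9 CPM and the overexpression mean 174.8 ± 33.5 CPM (SD, n = 4).

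The fitted log2 fold change of glrx5 was 2.70 ± 0.33 (SE), or 6.51-fold with a range of 5.18 to 8.18 within 1 SE. It stood 9th of the 760 genes called higher when these were ranked by fold change. Its neighbours in that order were dhrs4, a short-chain dehydrogenase gene, at 2.71 and ube2ka, a ubiquitin-conjugating enzyme gene, at 2.65. The control mean depends on control 2, whose 2 counts give an exact 95% interval of 7.31 to 217.9 CPM. Without that library the control mean was 24.8 ± 2.44 CPM (n = 3) and the log2 fold change 2.84.

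isca2 (LL0000012893), a partner in making the larger clusters, rose. There were 8, 3, 4 and 7 corrected counts in controls 1 to 4, against 41.2, 48.3, 34.1 and 67.5 with overexpression. The levels were 22.7, 90.5, 21.4 and 25.8 CPM in controls and 97.8, 80.1, 104.5 and 111.6 CPM with overexpression. Control 2, on 3 counts, was above overexpression 2, and the other 3 controls were below every overexpression library. Controls averaged 40.1 ± 33.7 CPM and overexpression libraries 98.5 ± 13.5 CPM (SD, n = 4).

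The log2 fold change of isca2 was 1.86 ± 0.36 (SE), with an adjusted p of 7.1e-05 in edgeR's quasi-likelihood test. Its counts of 3 to 8 in controls were too few for the filter, so isca2 was tested through its overexpression libraries. Fitted with no filter, the change was 2.08 ± 0.41 (adjusted p = 1.1e-05, edgeR). The plain ratio of the group means, in which every library counts the same, moves with control 2. Without control 2 the control mean was 23.3 ± 2.23 CPM (n = 3), and the log2 ratio of the means went from 1.30 to 2.08. The fitted value was then 2.10 (adjusted p = 8.9e-06).

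isca1 (LL0000012892), the other gene of that pair, was not called. There were 35.1, 4, 13 and 25.1 corrected counts in controls 1 to 4, against 58.4, 75.7, 34.1 and 95.1 with overexpression. The levels were 99.5, 120.7, 69.8 and 92.2 CPM in controls and 138.6, 125.6, 104.5 and 157.1 CPM with overexpression. Only the third overexpression library lay within the range of the controls, below control 2. The control mean was 95.6 ± 21.0 CPM and the overexpression mean 131.5 ± 22.1 CPM (SD, n = 4).

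The log2 fold change of isca1 was 0.54 ± 0.26 (SE) and did not pass the test (adjusted p = 0.0758, edgeR). It passed without control 2 (0.62, adjusted p = 0.0384), without overexpression 3 (0.69, adjusted p = 0.0361) and when libraries were scaled by their totals (0.90, adjusted p = 0.0108). Over all 18 alternatives adjusted p ran from 0.00563 to 0.381, and the lowest belongs to a value of the opposite sign, -1.02, when libraries were scaled on contractile genes.

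bola3 (LL0000001981), the delivery factor, rested on few counts. There were 2, 2, 2 and 5 corrected counts in controls 1 to 4, against 3, 26.1, 10 and 19 with overexpression. The levels were 5.66, 60.3, 10.7 and 18.4 CPM in controls and 7.12, 43.3, 30.7 and 31.5 CPM with overexpression. Control 2 was above all overexpression libraries, overexpression 1 was below all but 1 of the controls, and the groups overlapped. Controls averaged 23.8 ± 24.9 CPM and overexpression libraries 28.1 ± 15.2 CPM (SD, n = 4).

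The fitted log2 fold change of bola3 was 1.08 ± 0.60 (SE), short of the threshold (adjusted p = 0.120, edgeR). It was 1.42 without overexpression 1 (adjusted p = 0.0307), 1.38 without control 2 (adjusted p = 0.0604) and 0.53 without control 1 (adjusted p = 0.536). When libraries were scaled by their totals it was 1.42 (adjusted p = 0.0417). Over the 16 alternatives that tested it adjusted p lay between 0.00969, in the 6 libraries the authors compared, and 0.536, and a stricter filter and the use of nuclear counts only left it out. Without control 2 the control mean was 11.6 ± 6.42 CPM (n = 3).

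Counts of these genes can also be set against each other inside a library, where scaling between libraries has no part. Corrected glrx5 counts per isca1 count were 0.256, 0.50, 0.384 and 0.239 in controls 1 to 4 and 1.02, 1.27, 2.10 and 1.14 with overexpression. The groups did not overlap, and the means were 0.345 ± 0.122 and 1.38 ± 0.489 (SD, n = 4). Per isca2 count, glrx5 stood at 0.667 to 1.25 in controls (0.975 ± 0.263) and at 1.44 to 2.10 with overexpression (1.78 ± 0.311). The isca2 count per isca1 count was 0.228, 0.307 and 0.279 in controls 1, 3 and 4, 0.75 in control 2, and 0.638 to 1 with overexpression. A further value used log2(CPM + 1), in which scaling between libraries does not cancel fully. There glrx5 minus the mean of isca1, isca2 and bola3 was -0.26 ± 0.39 in controls and 1.34 ± 0.30 with overexpression (SD, n = 4). These values are given with no test, since glrx5 was picked on this contrast.

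**Figure D2:**
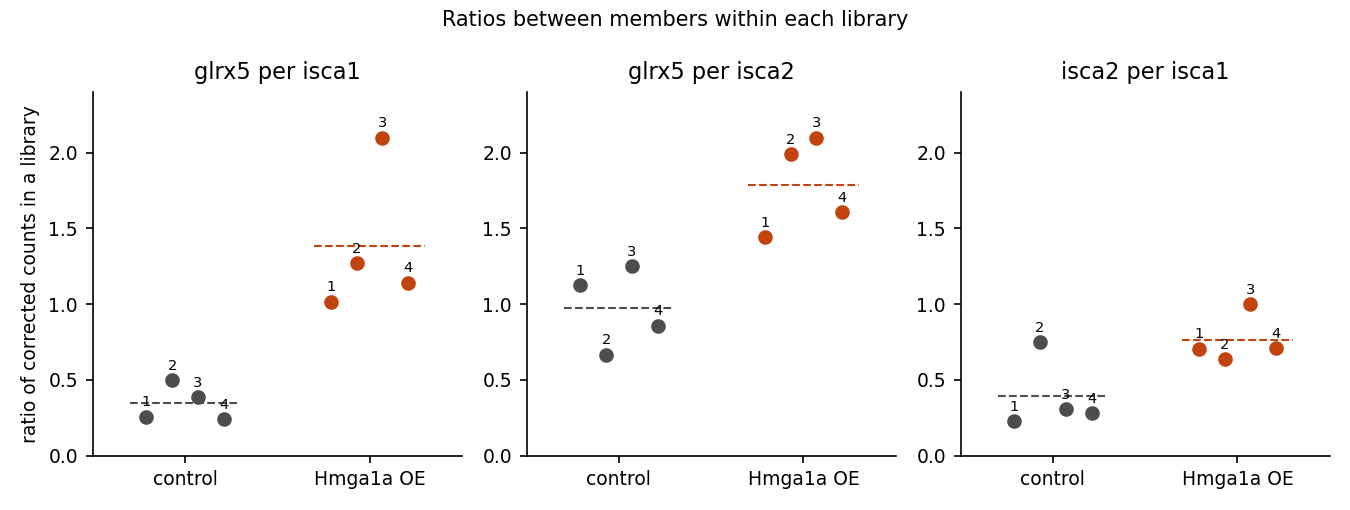
Ratio of corrected counts between pairs of genes inside each library, on a linear axis that starts at 0. Points are libraries with their sample numbers, and dashed lines are group means. The ratio of glrx5 to isca1 is at most 0.50 in the controls and at least 1.02 with overexpression, and the control with the high isca2 to isca1 ratio is control 2 (0.75).

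The levels of the 4 genes that passed the filter were correlated across the 8 libraries, which share the group difference and, in control 2, a shallow library. Pearson's r of log2(CPM + 1) between glrx5 and isca2 was 0.93, and 0.90 after each group was centred on its mean. Between glrx5 and isca1 it was 0.73, and 0.35 after centring. Between glrx5 and bola3 it was 0.45, and 0.73 after centring. These are descriptions of 8 points and carry no p.

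By the same measure the 5 genes most like glrx5 over all 8 libraries were acadl (r = 0.991), acadm (0.986), cox17 (0.985), dlst (0.985) and casq2 (0.984). acadl and acadm code for acyl-CoA dehydrogenases of fatty acid oxidation, cox17 for a copper chaperone of cytochrome c oxidase, dlst for the acyltransferase of the 2-oxoglutarate dehydrogenase complex and casq2 for the calcium store protein of cardiac muscle. Of 2500 genes, 226 had r over 0.9 and 242 had r under -0.9. After centring, the highest were syf2 (0.983), oxsr1a (0.977), myl6 (0.969), myh7bb (0.964) and LOC101884098 (0.956), with 31 genes over 0.9 and 255 under -0.9. The centred level of glrx5 lay farthest from its group mean in control 2, where 2 counts gave 60.3 CPM. The part of that library in the centred correlations was not tested.

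The clients and neighbours of the pathway were followed in lists grouped by function. Among other mitochondrial assembly factors, 19 were listed, 16 had a row, 4 were at 0 and 5 passed the filter. Of the 5, 3 rose and 1 fell, and their median was 0.84 on the log2 scale beside 0.01 over all genes tested. Of all genes tested 30.4% were called higher and 29.2% lower, and 5 genes are too few to set against these shares. ndufab1a, an acyl carrier protein that in human and yeast cells is part of the desulfurase complex, averaged 117.1 ± 42.8 CPM in controls and 292.1 ± 56.0 CPM with overexpression (SD, n = 4), a rise of 1.53 ± 0.24 on the log2 scale (adjusted p = 2.7e-06, edgeR). nfu1, which delivers the larger clusters, went up from 38.2 ± 11.6 to 70.4 ± 12.5 CPM (a log2 change of 0.84 ± 0.35, adjusted p = 0.0381, edgeR), a call that held in 10 of 18 alternatives. Without control 1 its change was 0.55 (adjusted p = 0.252), and adjusted p ran from 0.00487 to that value over the alternatives.

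The pair of mitoferrins, iron importers of the inner mitochondrial membrane, were called in opposite directions, and neither call held throughout. slc25a28, the form of most tissues, rose (by 0.98 ± 0.38 on the log2 scale, adjusted p = 0.0289, edgeR) and passed in 12 of 17 alternatives. Its change was 0.63 without control 1 (adjusted p = 0.234), and adjusted p ran from 0.00453 to that value over the alternatives. slc25a37, the form of red cell precursors, fell by 0.85 ± 0.36 on the log2 scale (adjusted p = 0.0423, edgeR), a call that held in 7 of 17 alternatives, over which adjusted p reached 0.321. hspa9, the chaperone that releases clusters from the scaffold, was at 0.09 ± 0.20 and was not called (adjusted p = 0.717, edgeR). The difference between the mitoferrins was not tested.

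In the cytosolic assembly list 15 were listed, 7 had a row and 2 were tested, of which 1 was called higher and 0 lower. Among all genes tested 30.4% were called higher and 29.2% lower, and 2 genes are too few to set against these shares. glrx3, a cytosolic glutaredoxin with roles in iron delivery, went up from 16.5 ± 11.04 to 51.9 ± 10.2 CPM (SD, n = 4), a log2 change of 1.26 ± 0.41 (adjusted p = 0.00982, edgeR). With 18 counts over all controls, glrx3 passed the filter through the overexpression libraries, which favours a call upward. Fitted with no filter, its change was 1.49 ± 0.48 (adjusted p = 0.0176, edgeR). ciao2a, a targeting factor of the cytosolic machinery, was at 0.32 ± 0.44 and did not pass (adjusted p = 0.545).

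Of 16 listed proteins of the mitochondrion that hold iron-sulfur clusters, 9 had a row and 2 were at 0. The 5 tested were all called higher, with a median of 1.37. The share called higher among all genes tested was 30.4%, with a median of 0.01, and 5 genes are too few to set against it. Of the 5, ndufv2 had 15 counts over all controls and passed the filter through the overexpression libraries, which favours a call upward. The other listed genes with counts fell below the filter. fech had 3 counts over the controls and 1 with overexpression, and mocs1 had 3 and 18. With no filter neither was called (adjusted p = 0.357 and 0.355, edgeR). sdhb, the iron-sulfur subunit of succinate dehydrogenase, had levels of 30.2 to 85.9 CPM in controls and 225.5 to 240.5 CPM with overexpression. Its groups did not overlap, an upward separation that 25.7% of all genes tested showed. The means were 65.9 ± 24.5 CPM and 232.2 ± 6.76 CPM (1.65 ± 0.24, adjusted p = 9.1e-07, edgeR). The complex I subunits ndufv2 (1.62 ± 0.44), ndufv1 (1.37 ± 0.24) and ndufs8a (1.06 ± 0.20) also rose. So did cisd1, a cluster protein of the outer membrane (1.29 ± 0.45, adjusted p = 0.0151), whose call held in 12 of 17 alternatives. Outside the mitochondrion only abce1, a ribosome recycling factor, was tested of 18 listed, and it did not pass (0.71 ± 0.35, adjusted p = 0.0803, edgeR).

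Set against this client inside each library, glrx5 stood at 0.345, 0.312 and 0.299 counts per sdhb count in controls 1, 3 and 4 and at 0.618 to 0.972 with overexpression. Control 2 was at 2, from 2 glrx5 counts over 1 sdhb count, and was above every overexpression library.

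Lipoic acid synthesis depends on the larger clusters. RNA of the tested enzymes that carry lipoate rose, and a link to cluster supply was not tested. Of 9 genes listed 6 had a row, and 4 of the 4 tested were called higher, with a median of 1.67. Over all genes tested 30.4% were called higher, with a median of 0.01, and 4 genes are too few to set against that share. dlat, the acyltransferase of pyruvate dehydrogenase, went up from 117.2 ± 70.8 to 500.3 ± 66.2 CPM (SD, n = 4; 1.84 ± 0.23, adjusted p = 5.2e-08, edgeR). dbt of the branched-chain complex (1.86 ± 0.42), dlst (1.5 ± 0.21) and pdhx (1.27 ± 0.37) were the others. dbt and pdhx had 15 and 26 counts over all controls and passed the filter through the overexpression libraries, which favours a call upward. The lipoyltransferase genes lipt1 and lipt2 had too few counts to be tested.

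**Figure D3:**
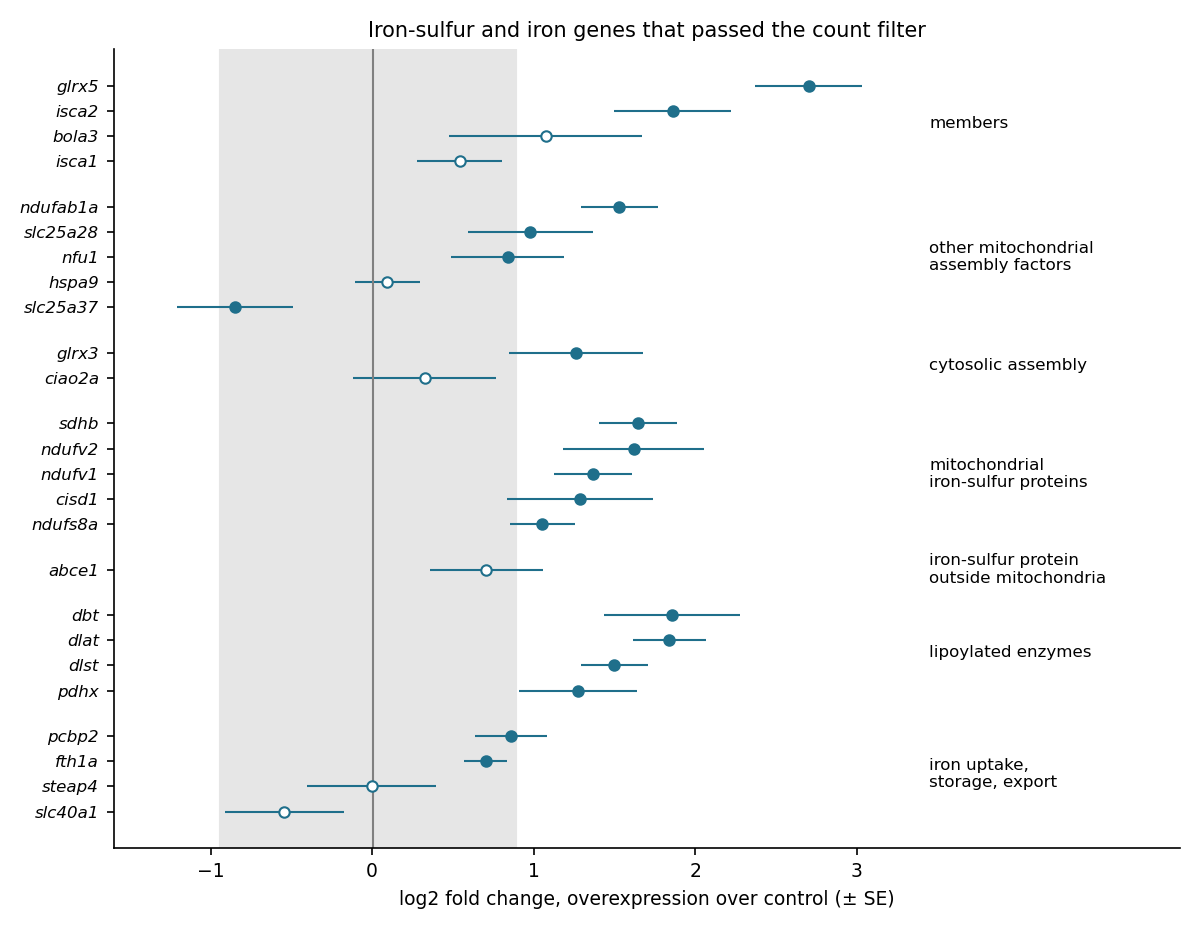
Log2 fold change with its SE for every gene of the assembly, client, lipoate and iron lists that passed the count filter. Filled points passed edgeR's test, open points did not (glrx5 is filled although it was picked on this contrast), the line marks the median of all genes tested (0.01) and the grey band runs from their 25th to their 75th percentile, -0.94 to 0.89. All 5 mitochondrial iron-sulfur proteins and all 4 lipoylated enzymes lie to the right of the band.

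Of 19 iron handling genes listed, 13 had a row and 4 were tested, of which 2 rose and 0 fell, with a median of 0.35. Among all genes tested 30.4% were called higher and 29.2% lower, with a median of 0.01. The 4 genes are too few to set against these shares. The 2 not called were slc40a1 (-0.54 ± 0.37, adjusted p = 0.206) and steap4 (-0.0022 ± 0.40, adjusted p = 0.998), both from edgeR. fth1a, a ferritin heavy chain that stores iron, went up from 1904 ± 161 to 3092 ± 200 CPM (SD, n = 4; 0.70 ± 0.13, adjusted p = 4.4e-05, edgeR). pcbp2, known in human cells as an iron chaperone, rose by 0.86 ± 0.22 (adjusted p = 0.00149, edgeR). Of 10 heme synthesis genes listed, 7 had a row, 2 were at 0 and 0 of the 5 others passed the filter.

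Fitted with no filter, 13443 genes were tested, of which 6.91% were called higher and 7.66% lower. Several low genes of these lists passed there and were picked out after their values were seen. tfr1a, a transferrin receptor, had 3, 0, 0 and 3 counts in controls and 9, 10, 20 and 30.1 with overexpression (2.53 ± 0.65, adjusted p = 0.00133, edgeR). tfa, the gene of the iron carrier transferrin, had 26 counts over the 4 controls and 1 over the 4 overexpression libraries (adjusted p = 1.1e-05, edgeR). fth1b, another ferritin heavy chain gene, was also called higher (2.30 ± 0.66, adjusted p = 0.00608, edgeR). bola1 had 1, 0, 0 and 4 counts in controls and 16, 21, 1 and 12 with overexpression, so that overexpression 3 lay at the level of the controls. It passed in edgeR (adjusted p = 0.0204) and not in DESeq2 (adjusted p = 0.111). nubpl, an assembly factor of complex I, had 1 count over all controls and 27 over the overexpression libraries, of which 19 were in 1 library (adjusted p = 0.0292, edgeR; DESeq2 gave none). The heme synthesis gene uros had 1, 0, 0 and 0 counts in controls and 3, 7, 8 and 10 with overexpression (adjusted p = 0.0178 in edgeR and 0.0546 in DESeq2).

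Among glutaredoxins, thioredoxins and their partners, 14 were listed, 11 had a row and 8 were tested, of which 6 were called higher and 0 lower, with a median of 1.25. Over all genes tested 30.4% were called higher and 29.2% lower, with a median of 0.01. The 6 and the median of the list include glrx5, on which the set was chosen, and glrx3. The others include gpx4b, a lipid peroxide reductase (1.76 ± 0.29), and the mitochondrial peroxiredoxins prdx3 (1.24 ± 0.24) and prdx5 (1.16 ± 0.19). glrx2, the other mitochondrial glutaredoxin, was listed at 0 in all libraries.

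An entry named zgc:110319, to which RefSeq gives no other name, stands among the assembly genes in the authors' deposited enrichment table. It had 2, 0, 1 and 5 counts in controls 1 to 4 and 16, 24.1, 9 and 32.1 with overexpression. Every overexpression library was above every control in CPM, as was so for 25.7% of all genes tested. The means were 7.36 ± 7.81 and 39.7 ± 10.5 CPM (SD, n = 4, log2 fold change 2.06 ± 0.54, adjusted p = 0.0016, edgeR). The entry was picked after its values were seen, from a list of genes raised in these same data. With at most 5 counts in a control, it passed the filter only through the overexpression libraries. Its separation and its p are therefore a description.

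The authors compared 6 of the libraries, leaving out control 2 and overexpression 1, as read from count columns that equal those of controls 1, 3 and 4 and overexpression 2, 3 and 4. Of 7998 genes in the authors' deposited table, 14.2% have a positive change and an adjusted p under 0.05. The authors' deposited table gives log2 fold changes of 3.18 for glrx5, 2.35 for isca2 (adjusted p = 3.7e-09), 1.93 for bola3 (0.00474), 0.86 for isca1 (0.0133) and 1.30 for fxn (0.401). bola3 and isca1 thus have an adjusted p under 0.05 in the authors' deposited table and not in the present fit of 8 libraries. When the present fit was run on the same 6 libraries, bola3 passed (1.68, adjusted p = 0.00969, edgeR). isca1 did not pass there (0.60, adjusted p = 0.0638, edgeR). isca1 and fxn are not marked there as raised. The authors' deposited enrichment table lists 12 raised genes under iron-sulfur cluster binding (3.73-fold, Benjamini-adjusted p = 0.0163), glrx5 and isca2 among them. Its background was 17340 genes, beside the 7998 genes of the authors' comparison, and the part of detection in the enrichment was not tested. The terms for 4 iron, 4 sulfur (0.0517) and 2 iron, 2 sulfur cluster binding (0.0739) and for cluster transfer (0.793) had Benjamini-adjusted p above 0.05. Under iron-sulfur cluster assembly the authors' deposited table lists 5 (nfu1, isca2, zgc:110319, nubpl and glrx5), with an adjusted p of 0.510.

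Since the cardiomyocyte markers rose with the groups, the scale on which a change is read matters for these genes. With libraries scaled on contractile genes the median log2 fold change of all genes moved by -1.56, and with library totals alone by 0.37. Taken against the median of all genes, glrx5 lay between 2.46 and 3.06 and isca2 between 1.63 and 2.21 over the 18 alternatives. Subtracting that median takes out most of what a scaling changes, so these ranges mainly show the effect of filters, libraries and tests. On the contractile scale itself glrx5 was at 1.11, isca2 at 0.28 (adjusted p = 0.547), isca1 at -1.02 (adjusted p = 0.00563) and bola3 at -0.45 (adjusted p = 0.536), all from edgeR. On that scale 0 of the 5 mitochondrial iron-sulfur proteins were called higher and 1.33% of all calls were upward, against 51.0% with TMM and 66.8% with library totals alone.

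**Figure D4:**
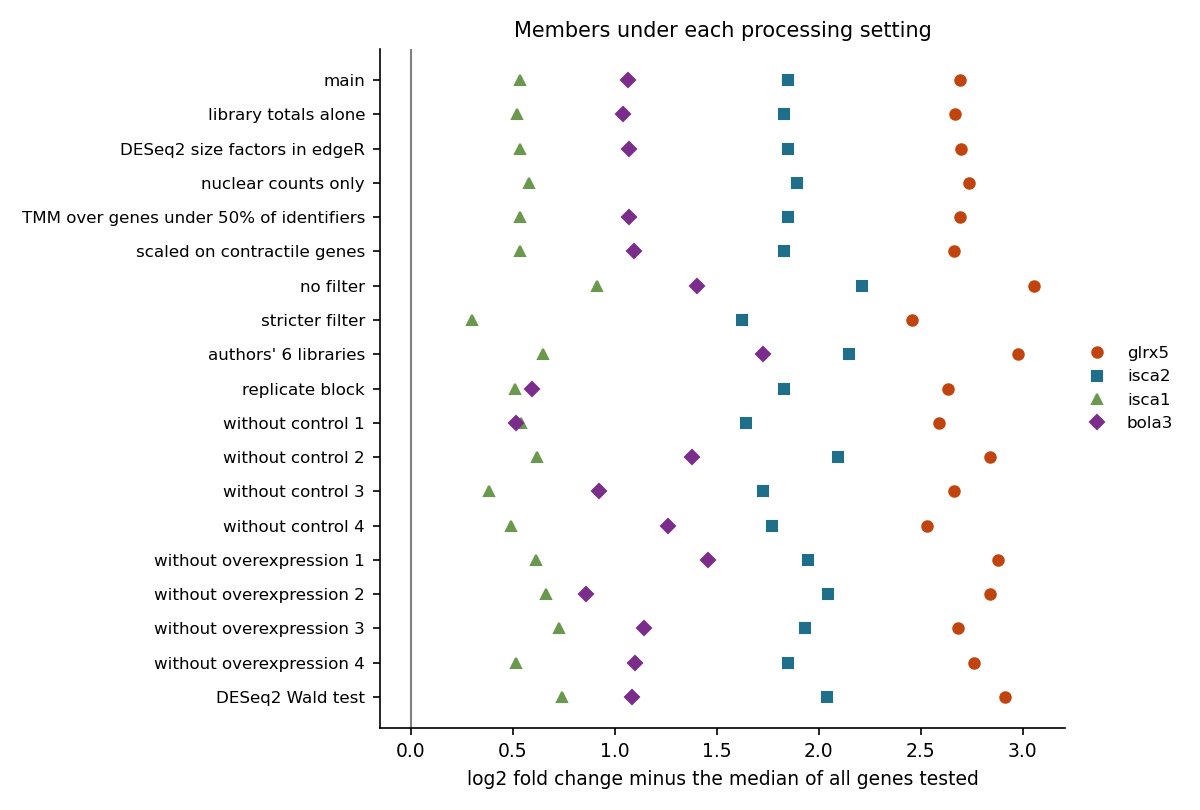
Log2 fold change of the 4 tested genes minus the median over all genes tested, under the reported settings (top line) and 18 alternatives. Each symbol is 1 gene, and a missing symbol means that the gene was not tested there. glrx5 lies between 2.46 and 3.06 and isca2 between 1.63 and 2.21, and the scaling alternatives lie close to the top line because the subtracted median moves with them.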

How the data were processed

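For each of the 8 libraries the deposited file holds estimated counts by gene, namely unique molecular identifiers after a correction for reuse. With 4096 identifiers, undoing the standard correction turned 100% of non-zero values whole (tolerance 0.01), and no gene of the set used more than 2.61% of them. The submitters' processing notes name danRer11 and edgeR without versions; not given in the sources used here are the aligner, the annotation and the strand setting. Their own comparison, also deposited by the authors, gives a log2 fold change, a p-value and an FDR for each of its 7998 genes. Per the file headers, the comparison also gives fold enrichment with Benjamini-adjusted p-values per gene ontology term. Its count columns equal 6 of the libraries (tolerance 1e-06). All count columns were mapped.

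Of 21301 entries 67 are spike-ins and were left out. Rounded counts were fitted with edgeR 4.0.16 under R 4.3.3: filterByExpr (minimum count 10), TMM, robust quasi-likelihood fit with no covariate, Benjamini-Hochberg over all genes tested, threshold 0.05. Genes with too few counts in controls could pass the filter through the overexpression libraries, and were then tested because they were high there. Among these are glrx5, isca2, glrx3, ndufv2, dbt and pdhx. The SE was derived from the coefficient and its F statistic. The fit was tested on simulated counts. DESeq2 1.42.0, other scalings and filters, and leaving out libraries were alternatives. Intervals are exact (95%) and cover counting error only. fxn was tested by exact permutation over 70 assignments; the repeat of that test and the control means without control 2 were added after seeing the data. Sequences and positions are not used here, and 1 gene of the lists is not reported here and was left out of its list's counts.

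The genes and the 16 lists were chosen with earlier results of these data known. Named genes are the 8 of the set, up to 4 tested genes per list with the smallest p, or the 2 most abundant where none passed, and the 5 most correlated with glrx5 with and without centring. Others named (hspa9, ciao2a, cisd1, slc40a1, steap4, zgc:110319 and the low genes fitted with no filter) were chosen after their values were seen.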

Additional observations from a re-analysis of the deposited data

Results flagged for a closer look

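In 4 of 26 groups of 4 libraries, 1 library stood far from the other 3, measured as its gap to the nearest value over the group's whole range (above Dixon's 95% critical value for 4 samples, which chance passes in about 1 of 20 groups). All 4 were control 2. They are the levels of glrx5 (60.3 CPM, gap ratio 0.877) and isca2 (90.5 CPM, 0.937), isca2 counts per isca1 count (0.75, gap ratio 0.848), and glrx5 counts per sdhb count (2, gap ratio 0.973). In that library, which has 49598 corrected counts in all, glrx5, isca2 and isca1 rest on 2, 3 and 4 counts, and sdhb on 1. The 4 groups share these counts and control 2 is the shallowest library. The rate of 1 in 20 therefore cannot be set against 4 of 26. Leaving control 2 out moved the log2 fold change of glrx5 from 2.70 to 2.84 and that of isca2 from 1.86 to 2.10.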

How the results depend on the processing

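isca2 passed in 17 of 18 alternatives. Of 458 log2 fold changes of 26 genes under alternatives, 402 kept direction and side of the threshold (for glrx5, which carries no test, direction alone), 32 no longer passed, 6 newly passed and 18 changed sign. Of 50 ratios of mean levels of 5 genes, 3 moved. Scaling on contractile genes gave 24 genes higher and 1784 lower (760 and 730 as reported), 1 gene of the set higher and 1 lower, 0 higher and 2 lower among other mitochondrial factors, 0 higher and 1 lower among cytosolic factors, 0 mitochondrial iron-sulfur proteins higher, and 0 iron handling genes higher and 4 lower. On that scale isca1 was at -1.02, bola3 -0.45, hspa9 -1.46, nfu1 -0.73, ndufab1a -0.059, slc25a28 -0.58, ciao2a -1.24, glrx3 -0.30, ndufs8a -0.50, ndufv1 -0.20, cisd1 -0.26, dlst -0.087, pdhx -0.30, fth1a -0.80, pcbp2 -0.71, prdx3 -0.35 and prdx5 -0.38. Library totals alone gave 964 of 2501 genes higher and 479 lower, with a median log2 fold change of 0.38. On that scale 4 of the set were higher and 0 other mitochondrial factors lower. A stricter filter (minimum count 20) gave 465 genes higher, 1 other mitochondrial factor higher and 0 lower, left 0 cytosolic factors to test (0 higher) and put hspa9 at -0.19. No filter gave 0 other mitochondrial factors lower, and 4 iron handling genes higher and 1 lower. DESeq2 gave 1 other mitochondrial factor higher and 0 lower, and 4 iron handling genes higher and 1 lower. Leaving out 1 library gave 1 to 4 other mitochondrial factors higher and 0 to 1 lower; the fewest higher came without control 1, and slc25a37 was not called without control 3 or 4 or any 1 overexpression library. The labels do not say that the numbers pair libraries, and deviations of libraries with the same number correlated at -0.045 to 0.016. Counting noise at this depth could hide a pairing, so these values cannot decide it. A fit with the number as a replicate block gave 696 genes higher and 652 lower, the same 2 of the set (isca2 1.86, adjusted p = 0.000186, edgeR) and, among other mitochondrial factors, 2 higher (nfu1 was lost, adjusted p = 0.0694) and 0 lower. Beyond the sign changes named, the causes were not tested. Control counts of 2 to 9 for glrx5 limit its fold change, and the low counts of bola3 and fxn limit what could be called.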
